A study of Homo sapiens with 12 samples.

Results

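The 76 genes described here encode proteins of the cytosolic ribosome. They were taken by symbol: a gene belongs if its name is RPL, RPS or RPLP followed by a number and at most 1 of the letters A, X or L, and if its level reached at least 10 TPM, a unit of transcript abundance scaled to a fixed total per library, in at least 3 of the 12 libraries. Of 80 genes with such a symbol in both deposited tables, 76 passed, 45 of the large and 31 of the small subunit, among 25540 genes in all. Members were thus chosen by their measured TPM, and that they are expressed is not a result. Total RNA came from LS411N-BR, a BRAF inhibitor-resistant derivative of the human colon cancer line LS411N, grown with such an inhibitor at 4 µM in the medium, and from LS411N itself, grown without it. Both lines carried a doxycycline-inducible hairpin against MUC1 and a puromycin resistance. The 4 groups of 3 libraries were LS411N-BR with 500 ng/ml doxycycline, LS411N-BR without doxycycline, LS411N with 500 ng/ml doxycycline and LS411N without doxycycline. The cells without doxycycline had 0.1% DMSO as vehicle, and no group with doxycycline lacked the hairpin, so an effect of doxycycline itself and an effect of the hairpin cannot be told apart. Nor can the inhibitor in the medium and the resistance of LS411N-BR.

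Every cytosolic ribosome is built from 1 copy of most of these proteins on a scaffold of ribosomal RNA, and cells keep their production balanced. In vertebrates most of their mRNAs begin with a TOP motif, a C at the first base followed by an unbroken run of pyrimidines. Through the TOP motif the kinase mTORC1 and the RNA-binding protein LARP1 control translation and stability of these mRNAs as a group, which follows nutrients and growth signals. A few of the proteins have roles away from the ribosome, such as RPL5 and RPL11, which bind the p53 ligase MDM2.

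The motif is shown for members on which the results below turn and that have a promoter entry. RPL7, which fell the most of the members in both lines, has no entry and is not shown. Each window holds 15 bases before and 15 bases from the annotated start of the gene in RefSeq on GRCh38.p14, and capitals mark a C at the first base with the run of C and T that follows, where it holds at least 4 pyrimidines after the C. RPLP2, RPLP1, RPS19 and RPL37A were among the members called lower in both lines after the rescaling described below. There RPS27 was called lower in LS411N-BR alone and RPL31 in LS411N alone. RPL39 had the longest run. RPL3 fell in both lines and RPS27L rose in LS411N-BR, without a match at their annotated start. RPL22L1 and RPL36AL are ribosomal proteins outside the symbol rule.
RPLP2 (chr11:809952-809981, plus strand): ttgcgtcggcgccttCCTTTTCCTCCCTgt
RPLP1 (chr15:69452803-69452832, plus strand): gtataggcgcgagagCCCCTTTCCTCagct
RPS19 (chr19:41860240-41860269, plus strand): ggaaaccccgtcgttCCCTTTCCCCTggct
RPS27 (chr1:153990747-153990776, plus strand): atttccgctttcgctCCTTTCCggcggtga
RPL37A (chr2:216498829-216498858, plus strand): gcaccgcgtctcttcCTTTCTgggctcgga
RPL31 (chr2:101002274-101002303, plus strand): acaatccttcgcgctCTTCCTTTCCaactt
RPL39 (chrX:119791616-119791645, minus strand): ttcttccgccagcttCCCTCCTCTTCCTTT
RPL3 (chr22:39319609-39319638, minus strand): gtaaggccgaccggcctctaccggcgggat
RPS27L (chr15:63157463-63157492, minus strand): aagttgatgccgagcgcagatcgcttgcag
RPL22L1 (chr3:170870181-170870210, minus strand): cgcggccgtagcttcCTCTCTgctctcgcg
RPL36AL (chr14:49620612-49620641, minus strand): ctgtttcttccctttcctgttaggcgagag
The run of RPL39 goes on past its window to 19 bases. Of the 76 members, 60 have an entry in the promoter table, and 40 of these, 66.7%, match at the start, against 4.07% of all 35116 promoters in the table. The sets are unlike: the 4.07% takes in every promoter, expressed or not, while the members were chosen by their TPM. The search read the gene's own strand at the first base alone. A match is a description of letters, and a start annotated a few bases away hides one: the entry of RPL3 begins with C and only 3 more pyrimidines.

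MUC1 itself had 0.699, 0.388 and 0.44 TPM in LS411N-BR with doxycycline, against 3.69, 3.94 and 4.27 TPM without it. In LS411N it had 0.986, 0.814 and 0.967 TPM with doxycycline, against 4.64, 6.1 and 4.54 TPM without it. Libraries with doxycycline lay below all others of their line, and MUC1 fell in limma's test on log2(TPM + 1). The change was -1.72 ± 0.08 SE in LS411N-BR (adjusted p = 5e-108) and -1.66 ± 0.13 SE in LS411N (adjusted p = 3.5e-14). At such low levels the added 1 makes these changes smaller than the log2 ratios of the TPM themselves. The level of each gene is a TPM, which is relative to all other RNA in the library. Genes of short structural RNAs took 47.4 to 51.4% of the TPM in LS411N-BR with doxycycline and 52.3 to 54.3% without it. They took 52 to 56.2% in LS411N with doxycycline, and 58.2, 58.1 and 47.3% without it, where replicate 3 stands apart from its group. Of the colon epithelial markers 10 of 11 had a mean of at least 1 TPM, with CDX1 near 0, and their sum was 2300 to 4920 TPM in a library. Of fibroblast and endothelial markers 1 of 9 reached that mean and the sum was at most 3.82 TPM. Of immune markers 2 of 7 did, LYZ and CD68, which carry a sum of 118 to 3087 TPM, while PTPRC was near 0.

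Because genes of short RNAs took unequal shares of the fixed total, counts of calls are given on the deposited TPM and after median-of-ratios rescaling, in which a library is divided by its median ratio to the geometric mean of each gene. In LS411N-BR the median log2 fold change of all tested genes with doxycycline was 0.18 as deposited and 0 after rescaling. In LS411N it was 0.08 and 0.01. Members are therefore described relative to these medians as well as by their own values. Some calls are also given with TPM scaled to the protein-coding genes alone, which leaves the short RNAs out. On that scale the median of all tested genes was still above 0, at 0.09 in LS411N-BR and 0.06 in LS411N. The part of the short RNAs' share in the results below was not tested beyond these scalings.

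The 76 genes together took 10.2, 9.63 and 9.31% of all TPM in LS411N-BR with doxycycline, against 9.48, 9.59 and 9.46% without it. In LS411N they took 11.1, 10.0 and 9.79% with doxycycline, against 9.94, 10.1 and 12.5% without it, the last in the replicate that stands apart. Groups overlap in both lines on this scale. Of the TPM of protein-coding genes alone they took 19.6, 20.2 and 19.1% in LS411N-BR with doxycycline, against 21.1, 20.5 and 20.9% without it. In LS411N the share of coding TPM was 23.5, 22.2 and 22.9% with doxycycline, against 24.2, 24.6 and 24.2% without it. On the coding scale all libraries with doxycycline lay below all without it in both lines, and replicate 3 of LS411N without doxycycline lay with its group. Here and below, less RNA of these genes per cell and fewer cells with much of it cannot be told apart in bulk RNA.

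**Figure D1:**
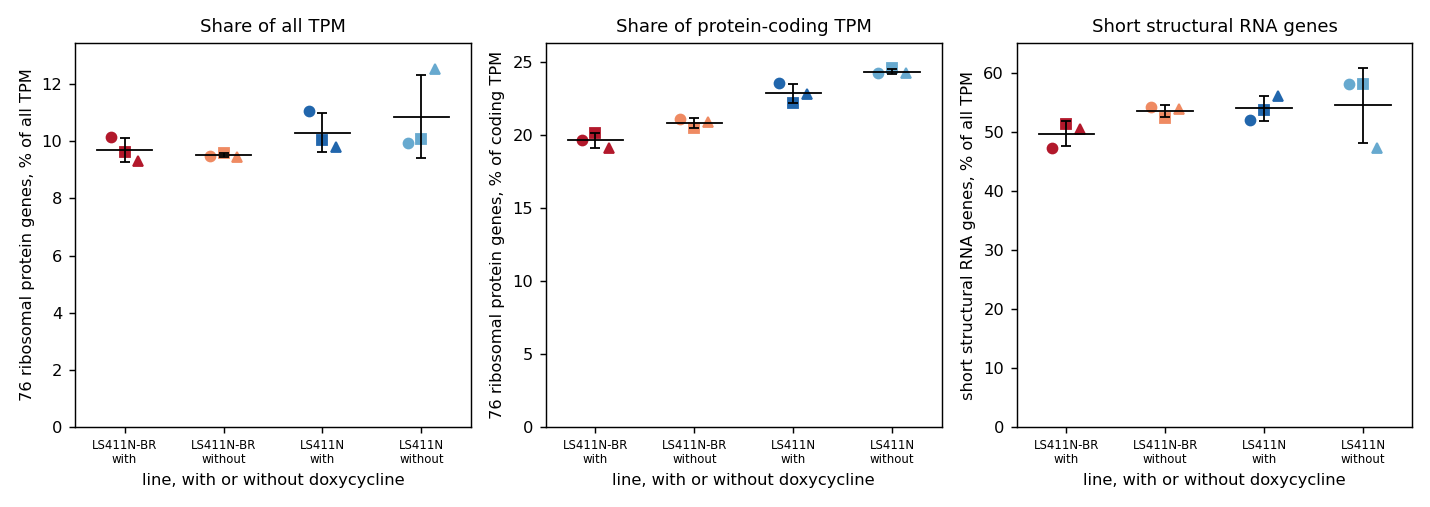
Percent of TPM per library for the 76 ribosomal protein genes (of all TPM, left, and of protein-coding TPM, middle) and for genes of short structural RNAs (of all TPM, right). Circles, squares and triangles are replicates 1, 2 and 3, and black bars are the mean and SD of 3 libraries; in the middle panel the libraries with doxycycline (19.1 to 20.2% and 22.2 to 23.5%) lie below those without it (20.5 to 21.1% and 24.2 to 24.6%).

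In LS411N-BR, 58 of 76 ribosomal protein genes fell with doxycycline after rescaling and 1 rose, and relative to the median of all genes the members lay lower on both scales. After rescaling 32.2% of all genes were called lower and 32.3% higher. With TPM scaled to protein-coding genes alone 32 members were called lower and 1 higher, beside 2384 and 5047 of 11053 genes. The members' median on that scale was -0.09, and that of all tested genes 0.09. On the deposited TPM 7 members were called lower and 6 higher, beside 11.1% of all genes called lower and 56.1% higher. With the spread of each gene taken from all 12 libraries these deposited calls were 1 lower, RPL7, and 1 higher, RPS27L, beside 722 lower and 4369 higher of all 11322 genes. The median of the members was 0.02 as deposited and -0.19 after rescaling, or -0.16 and -0.19 once the median over every gene tested is taken off. Without a filter on TPM, which takes in genes at low levels, the deposited median of the members minus that of all genes was -0.058. The 58 falls were small, 6.85 to 28.1% with a median of 14%, and they took in 34 of 45 large subunit and 24 of 31 small subunit genes. Groups did not overlap for 59 members that were lower and for 1 that was higher, beside 34.7 and 34.5% of all genes. On the deposited TPM they did not overlap for 7 that were lower and 12 that were higher, beside 12.1 and 56.0%. The tests are limma's on log2(TPM + 1), two-sided, with a call at a Benjamini-Hochberg adjusted p under 0.05 over all genes tested, and fold changes are on that scale. On leaving out each library in turn after rescaling 40 to 62 members were called lower, beside 3260 to 3452 of all genes. Of the members 39 were called lower in all 6 of these fits, a count that was not made for all genes. As deposited 11 were called higher without replicate 2 with doxycycline, beside 6422 of all 11153 genes. The lower calls were 3 without replicate 3 with doxycycline, 3 without replicate 1 without doxycycline and 4 without replicate 2 without doxycycline. The same fits called 1024 of 11141, 1124 of 11260 and 976 of 11242 genes lower. The deposited median of the members was -0.01 without replicate 1 with doxycycline and 0 to 0.05 in the other 5 such fits, and -0.18 to -0.14 relative to all genes in the 6 fits.

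The largest falls were of proteins from different places on the ribosome. RPL7, a large subunit protein, had 1752, 1874 and 1823 rescaled TPM in LS411N-BR with doxycycline, against 2579, 2454 and 2547 without it. The groups lie far apart, and RPL7 fell by 28.1% (log2 fold change -0.48 ± 0.05 SE, adjusted p = 1.4e-05; as deposited -0.27 ± 0.06 SE, adjusted p = 4e-05). RPL3, which shapes the peptidyl transferase centre, had 961, 1024 and 943 rescaled TPM with doxycycline, against 1312, 1286 and 1317 without it. All 3 libraries with doxycycline were lower, a fall of 25.2% after rescaling (-0.42 ± 0.04 SE, and -0.21 as deposited, adjusted p = 0.0012). RPS19, a small subunit protein needed for its maturation and mutated in Diamond-Blackfan anaemia, had 274, 310.0 and 259.9 rescaled TPM with doxycycline, against 375, 371 and 334 without it. RPS27, a small subunit protein with a zinc finger, had 214, 215 and 175 rescaled TPM with doxycycline, against 263, 250.2 and 255 without it. Both were lower in every library with doxycycline after rescaling and overlapped on the deposited TPM, and both were called on either scale, RPS19 at -0.36 after rescaling and -0.15 as deposited, RPS27 at -0.35 and -0.14.

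The stalk of the large subunit, which recruits translation factors, consists of RPLP0, pairs of RPLP1 and RPLP2, and RPL12 at its base. All 4 genes fell in LS411N-BR after rescaling, with a median of -0.32. Beside them 58 of the 76 members and 32.2% of all genes fell, and the median of all members was -0.19. RPLP2 had 317, 325 and 273 rescaled TPM with doxycycline, against 440, 427 and 390.5 without it. RPLP1 had 536, 483 and 399 rescaled TPM with doxycycline, against 604, 609 and 588 without it, its replicate 3 with doxycycline being the lowest. Neither gene overlapped between groups after rescaling, and both were also called lower on the deposited TPM (RPLP2 -0.25, adjusted p = 0.00011; RPLP1 -0.15, adjusted p = 0.027). As deposited RPLP2 did not overlap, while RPLP1 did, with 605, 501 and 427 TPM with doxycycline, against 547, 594 and 540.1 TPM without it. RPLP0 fell by 18.1% and RPL12 by 13.7% after rescaling, while on the deposited TPM they stood at -0.08 and 0, not called.

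RPS27L was the only member called higher after rescaling. It is the paralogue of RPS27 and known in human cells as a target of p53. RPS27L had 72.9, 77.4 and 72.9 rescaled TPM in LS411N-BR with doxycycline, against 71.8, 65 and 68.2 without it. The groups come close without overlapping, and the rise was 0.12 ± 0.04 SE after rescaling (adjusted p = 0.026) and 0.33 ± 0.06 SE as deposited (adjusted p = 6.3e-07). After rescaling it was not called without replicate 2 with doxycycline (adjusted p = 0.094), replicate 2 without doxycycline (0.097) or replicate 3 without doxycycline (0.06). Members called higher as deposited also included RPL39 and RPL35, which lie at the peptide exit tunnel, RPL34 and RPL18. The deposited log2 fold changes of these 4 were 0.17 to 0.23, near the median of all genes, and after rescaling they stood between -0.04 and 0.03, not called.

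**Figure D2:**
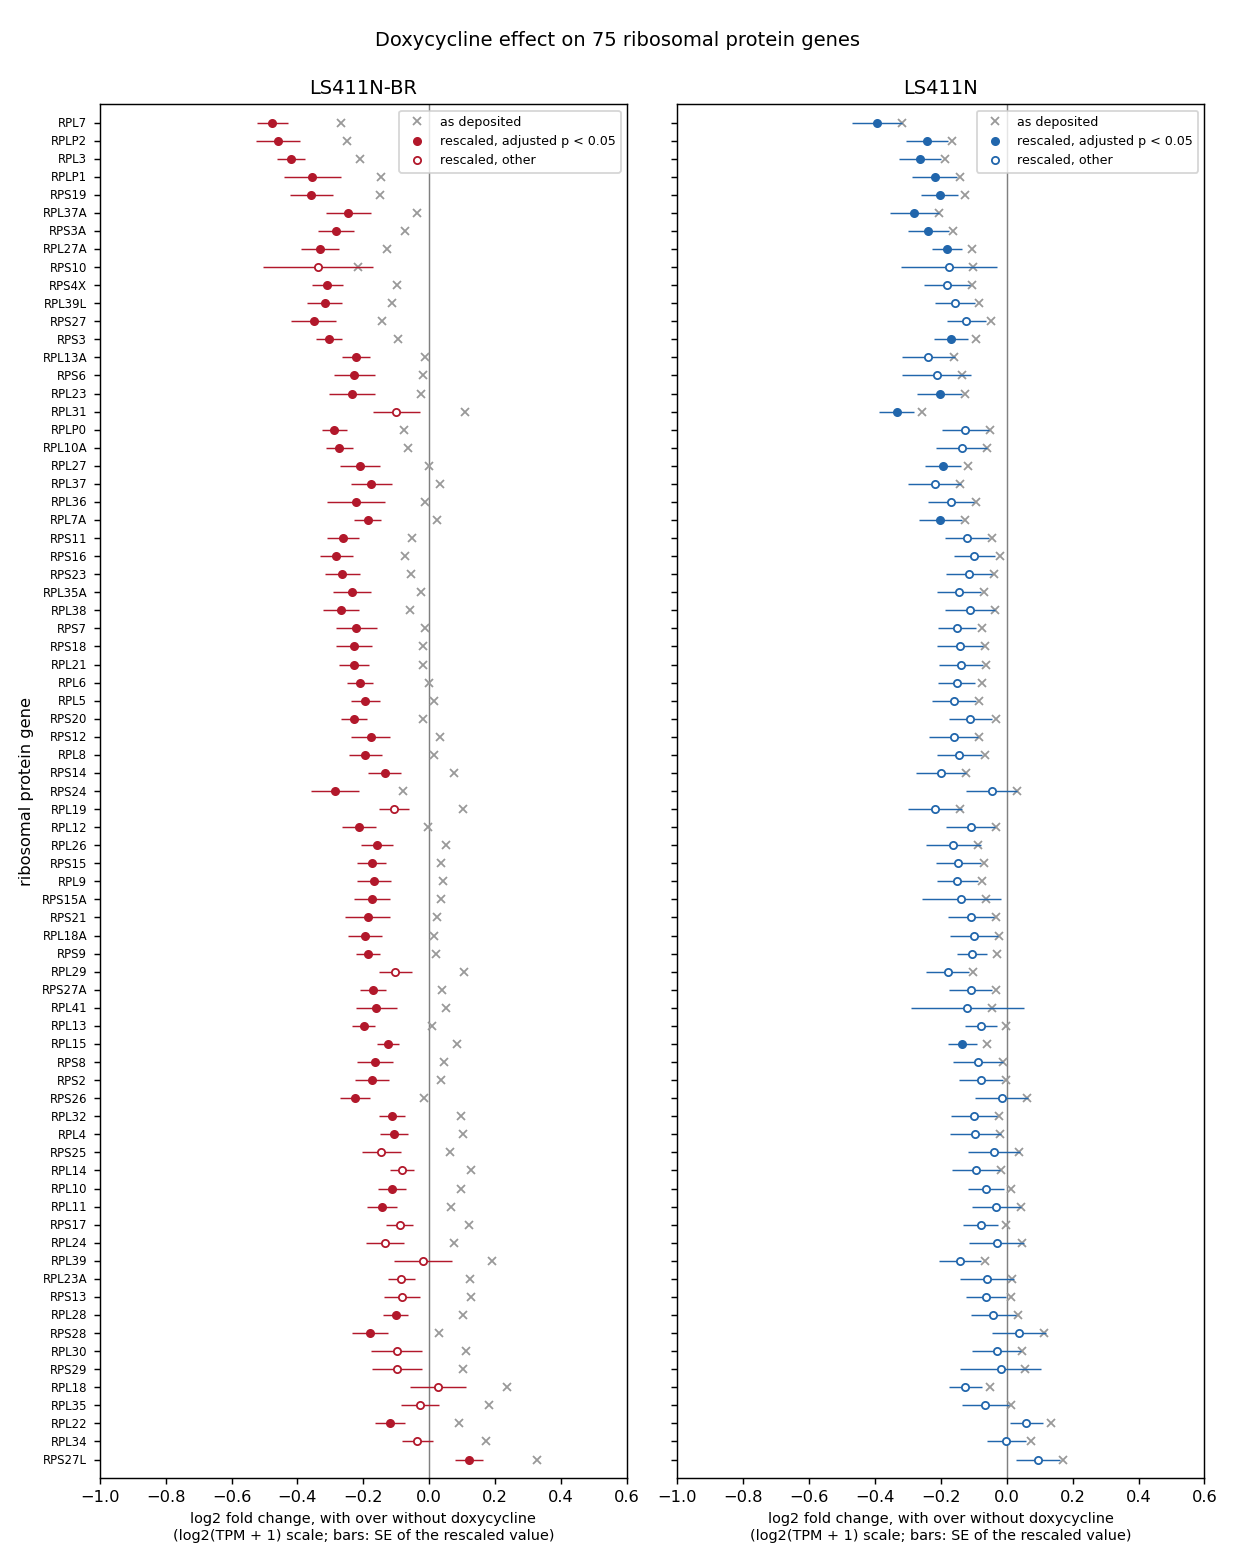
log2 fold change with over without doxycycline of 75 ribosomal protein genes in LS411N-BR (left, red) and LS411N (right, blue), ordered by the sum of the rescaled values. Circles are rescaled values with SE bars, filled where adjusted p is under 0.05, and grey crosses are deposited values; after rescaling 73 of those drawn in LS411N-BR and 72 in LS411N lie below 0.

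Among genes of other roles, RPL5 and RPL11, which join the 5S ribosomal RNA, both fell in LS411N-BR after rescaling, by 12.6 and 9.5%. The counts by role here stand beside 58 of the 76 members and 32.2% of all genes that fell. Small sets of members taken without regard to role would mostly fall too. RPS6, the main substrate of S6 kinase, fell by 14.6%, and RPS27A, made as a fusion with ubiquitin, by 11.1%. Of the peptidyl transferase genes RPL3, RPL4, RPL8 and RPL10 all 4 fell, and of the mRNA entry channel genes RPS2, RPS3 and RPS9 all 3 did. RPS3, which also acts in the nucleus in DNA repair, had the largest of these falls after RPL3, 19%, with 181, 195 and 181 rescaled TPM with doxycycline, against 237, 221 and 229 without it. At the mRNA exit channel RPS14, RPS26 and RPS28 fell, by 8.91, 14.5 and 11.7%. At the peptide exit tunnel 1 of 6 members, RPL26, fell, and RPL19, RPL23A, RPL31, RPL35 and RPL39 lay between -0.11 and -0.02. Of 18 Diamond-Blackfan anaemia genes 12 fell and 0 rose after rescaling, beside 58 of the 76 members and 32.2% of all genes that fell, and as deposited 3 fell and 2 rose. Of the paralogues, RPL39L fell by 19.8% and RPS4X, the X-linked form of RPS4, by 19.3%, against the rise of RPS27L. On the deposited TPM the calls among these roles included RPL3, RPS10 and RPS19 lower and RPL35, RPL39, RPL18 and RPS27L higher, and RPL5, RPL11, RPS6 and RPS27A stood between -0.02 and 0.07, not called.

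In LS411N, 14 of 76 members fell after rescaling and 0 rose, and 0 were called on the deposited TPM. Beside these counts, 16.0% of all genes were called lower and 18.8% higher after rescaling, and 3.43% lower and 9.75% higher as deposited. The share of members called lower is thus close to that of all genes, while the median of the members was -0.13 after rescaling, -0.14 relative to all genes, and -0.05 as deposited, -0.13 relative to all genes. Without a filter on TPM the deposited median minus that of all genes was -0.082. With TPM scaled to protein-coding genes alone 8 members were called lower and 0 higher, beside 1328 and 2711 of 11095 genes. The members' median on that scale was -0.08, and that of all tested genes 0.06. On leaving out each library in turn the deposited median of the members was -0.12 to 0.06, above 0 without replicate 3 without doxycycline alone, and -0.16 to -0.11 relative to all genes. As deposited 1 member was lower and 0 higher at an unadjusted p under 0.05. The 14 falls were of 11 large and 3 small subunit genes and measured 8.94 to 23.9%. Groups did not overlap for 35 members, all lower, beside 23.5% of all genes lower and 26.1% higher. As deposited they did not for 3, RPL7, RPL31 and RPL37A, all lower, beside 9.61% lower and 19.3% higher. On leaving out each library in turn after rescaling 2 to 29 members were called lower. Without replicate 1, 2 or 3 with doxycycline these were 13, 2 and 2. The same fits called 1323 of 11174, 1140 of 11174 and 1193 of 11194 genes lower. Without replicate 1, 2 or 3 without doxycycline 5, 7 and 29 members were called lower. Of all genes 1374 of 11221, 1370 of 11214 and 2446 of 11166 were called lower there. Without replicate 3 without doxycycline the deposited TPM gave 4 members higher and 1 lower, beside 5930 higher and 707 lower of all 11186 genes tested.

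RPL7 and RPL31 were the members called lower in all 6 of those fits in LS411N, which was not counted for all genes. RPL7 had 1814, 1534 and 1689 rescaled TPM with doxycycline, against 2241, 2246 and 2123 without it. The gap between groups exceeds the range within either, and the fall was 23.9% (-0.39 ± 0.08 SE, adjusted p = 0.0049; as deposited -0.32 ± 0.15 SE, adjusted p = 0.16). RPL31, at the exit tunnel, had 262, 239 and 262 rescaled TPM with doxycycline, against 315, 325 and 323 without it. Its groups do not overlap either and it fell by 20.7% (-0.33 ± 0.05 SE, adjusted p = 0.002). In LS411N-BR RPL31 had 395, 378 and 386 rescaled TPM with doxycycline, against 448, 361 and 438 without it. There replicate 2 without doxycycline lies below all 3 with it, and RPL31 was not called (-0.1, adjusted p = 0.24; without that library it was, at -0.2, adjusted p = 0.0014).

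The other 12 members that fell in LS411N included both acidic stalk proteins. RPLP2 had 1387, 1396 and 1414 rescaled TPM with doxycycline, against 1596, 1607 and 1765 without it. RPLP1 had 3481, 3449.5 and 3505 with doxycycline, against 4064, 4204 and 3883 without it. Both groups with doxycycline are tight and lie below those without it. RPL37A, a small zinc-finger protein of the large subunit and among the most abundant members, had 4288, 3965 and 4242 rescaled TPM with doxycycline, against 5172, 5189.5 and 4817 without it. RPL3 fell by 16.6%, RPS3A by 15.2% and RPS19 by 13.1%. These calls were lost on leaving out 1 library in some fits, with adjusted p up to 0.062 for RPL3, 0.065 for RPLP2, 0.13 for RPLP1, 0.083 for RPL37A, 0.084 for RPS3A and 0.097 for RPS19. RPS27L stood at 0.1 in LS411N, with 42.1, 47 and 49.3 rescaled TPM with doxycycline, against 43, 41.1 and 45.2 without it, and these groups overlap.

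**Figure D3:**
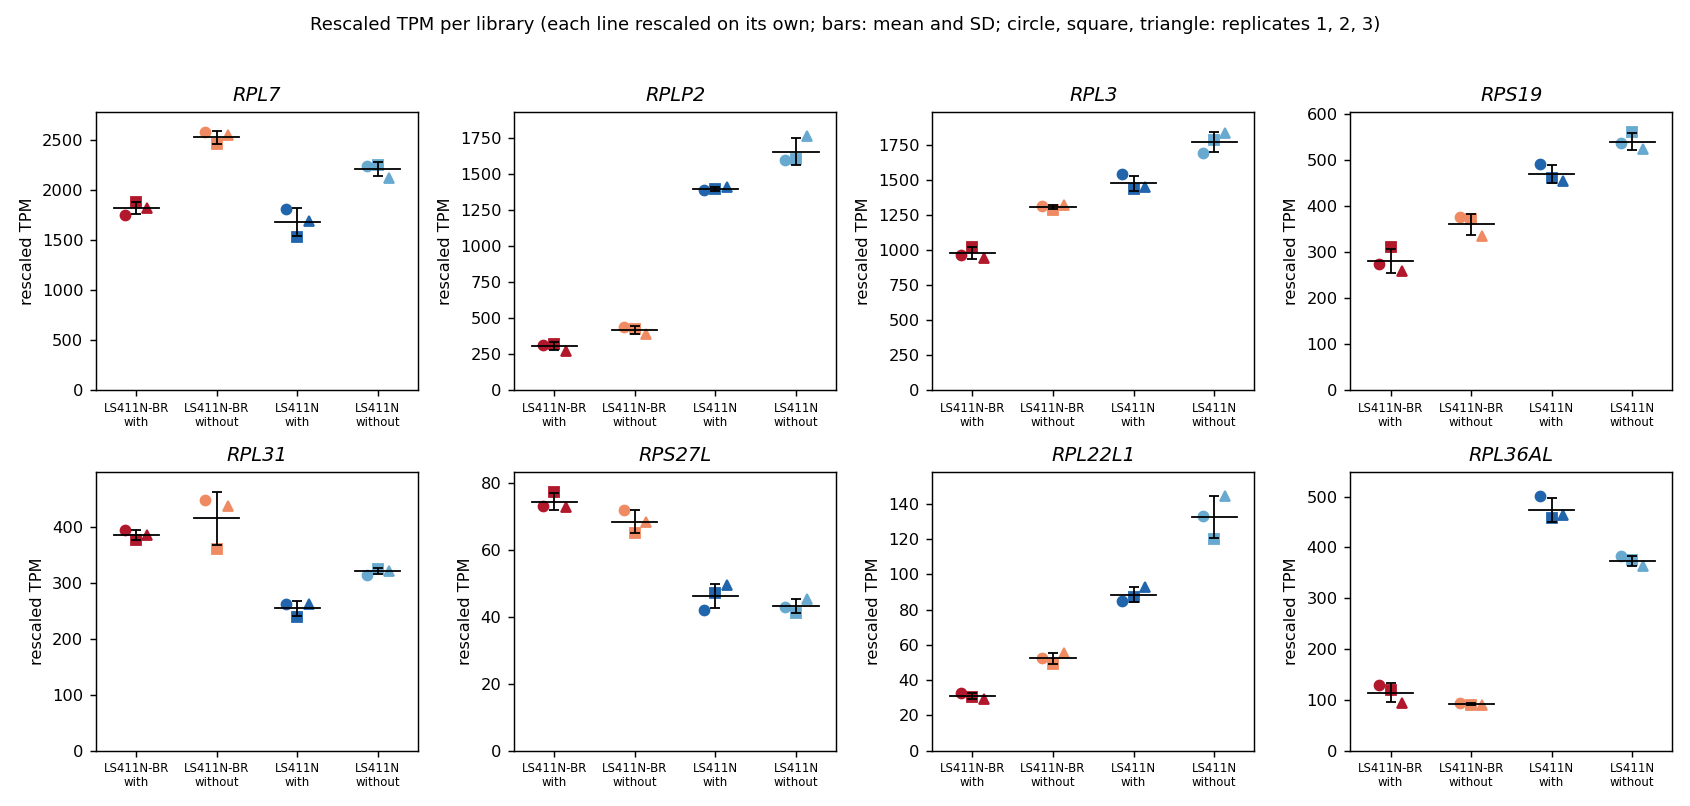
Rescaled TPM per library of 6 members and of the paralogues RPL22L1 and RPL36AL; each line was rescaled on its own, so levels are compared within a line. Circles, squares and triangles are replicates 1, 2 and 3 with the mean and SD of 3 in black; RPL7, RPLP2, RPL3, RPS19 and RPL22L1 lie lower with doxycycline in both lines and RPL36AL higher, while RPL31 overlaps between groups in LS411N-BR.

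The lines share no libraries, so their effects can be set side by side. Of the 14 members called lower in LS411N after rescaling 13 were also called lower in LS411N-BR: RPL3, RPL7, RPL7A, RPL15, RPL23, RPL27, RPL27A, RPL37A, RPLP1, RPLP2, RPS3, RPS3A and RPS19. They are 92.9% of the members called in LS411N and 22.4% of those called lower in LS411N-BR. In LS411N-BR 58 of all 76 members were called lower, so 14 members taken without regard to LS411N would mostly be shared too. The overlap over all genes was not counted. No member was called higher in both lines or in opposite directions. A negative rescaled value in both lines was found for 72 members. Across the 76 the rescaled effects of the lines had a Pearson r of 0.561 and a Spearman rho of 0.517. These correlations describe genes that share their libraries. Neither that number of members nor the correlations were set beside values for all genes. In the test of the difference itself, LS411N-BR minus LS411N in a limma fit over all 12 libraries, 0 of 76 members were called in either direction on either scale. At an unadjusted p under 0.05, 1 was higher and 0 lower as deposited, and 1 was higher and 4 lower after rescaling. Of all genes 1.39% were called higher and 0.728% lower as deposited, and 4.37 and 5.81% after rescaling. RPL31 had the largest difference (0.24 ± 0.1 SE after rescaling, adjusted p = 0.15; 0.37 ± 0.15 SE as deposited, adjusted p = 0.3). Without replicate 3 of LS411N without doxycycline, 2 members were called lower after rescaling, RPLP0 (-0.23, adjusted p = 0.013) and RPL22 (-0.21, adjusted p = 0.043). With all 12 libraries, a difference in the effect between the lines was not shown for any member.

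The levels of some members differed several-fold between the lines. No test was made, because the lines' tables were scaled apart. The sources used here do not say whether both used the same gene models. For these levels the 12 libraries were rescaled together over the genes in both tables. Without doxycycline 16 members were at least 2-fold lower in LS411N-BR and 2 at least 2-fold higher, beside 4.23 and 3.57% of 10837 genes with a mean of at least 1 rescaled TPM in both. With doxycycline the same counts were 17 and 1. RPS10 is counted in the 16 and the 17, though the 10 TPM rule set its place. The median ratio of LS411N-BR over LS411N was 0.746 for the members and 1.03 for all genes. Lines did not overlap for 71 members, beside 75.7% of all genes, with 52 of them lower and 19 higher in LS411N-BR.

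RPLP1 had 574, 577 and 560.4 jointly rescaled TPM in LS411N-BR without doxycycline, against 4239, 4387 and 4087 in LS411N without doxycycline. RPS27 had 250.1, 237 and 243 in LS411N-BR, against 1806, 1778 and 1913 in LS411N, and RPL27A, a large subunit protein, had 47.1, 42.2 and 44.7, against 298, 286 and 299.9. These 3 were 7.43, 7.53 and 6.6 times lower in LS411N-BR, with replicates of a line close together. Those named here were chosen by the size of the ratio, after the values were seen. RPLP2 was 4.35 times lower, RPS24 3.97 times, RPL36 3.78 times and RPS3 3.16 times. RPL39 went the other way, with 5391, 4654 and 5585 in LS411N-BR, against 1595, 1575 and 1544 in LS411N. RPS28, a small protein at the mRNA exit channel, had 3670, 3621 and 3895 in LS411N-BR, against 1706, 1861 and 1552. In the log2 levels the lines had a Pearson r of 0.902 over the 76 members. The line ratio had a Spearman rho of -0.125 with exon length. RPS10 was 8.06 times lower, but it met the 10 TPM rule through LS411N alone. It also overlaps another coding gene, as described below, so its level is uncertain.

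**Figure D4:**
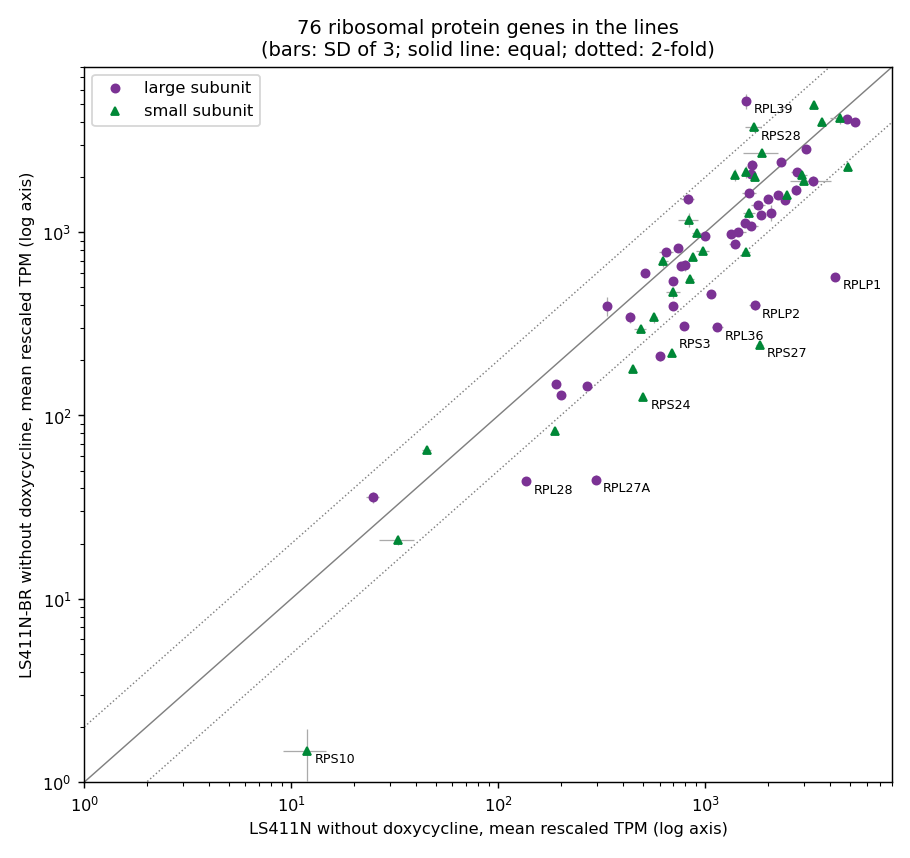
Mean level of the 76 members without doxycycline in LS411N-BR (vertical) against LS411N (horizontal), in TPM rescaled over the 12 libraries, on log axes. Bars are the SD of 3 libraries, the solid line is equality and dotted lines mark 2-fold; 16 members lie below the lower dotted line, RPS10 among them by the rule that chose the members and RPS27, RPLP1 and RPL27A the farthest of the others, and RPL39 and RPS28 above the upper one.

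Over the 12 libraries the deposited levels of members ran from a mean of 5.92 TPM for RPS10 to 4254 TPM for RPL12, with a median of 1039 TPM. The highest were RPL12, RPL37A, RPS25, RPS6 and RPS2, and the lowest RPS10, RPS29, RPL39L, RPS27L and RPL28. RPS10, the member nearest the threshold, had 10.4, 9.84 and 10.1 TPM in LS411N with doxycycline and 11.3, 12 and 9.63 TPM in LS411N without it, but 1.73, 0.666 and 0.99 TPM in LS411N-BR with doxycycline and 1.79, 1 and 1.54 TPM in LS411N-BR without it. The LS411N-BR groups overlap, and RPS10 was called lower there as deposited (-0.22, adjusted p = 0.01) and not after rescaling (-0.34, adjusted p = 0.1). Just outside lay RPL17 with 0.661 to 4.3 TPM and RPL36A with 1.4 to 2.42 TPM, then RPL10L and RPL3L with at most 0.286 TPM. In GENCODE 29 RPS10 overlaps the coding gene RPS10-NUDT3 on the same strand. RPS10-NUDT3, RPL17-C18ORF32 and RPL36A-HNRNPH2 are given at 0 TPM in all 12 libraries. How reads shared with such genes were counted is not stated. Low TPM of RPS10, RPL17 and RPL36A thus need not mean little mRNA, which was not tested. TPM divide by a transcript length that the sources used here do not give. In the GENCODE 29 annotation the exons of a member cover 767 to 9845 bases, and RPS29 and RPS27L, with the most, are among the lowest in TPM. Across the 76 members mean level and exon length had a Spearman rho of -0.377, while length had a rho of 0.14 with the rescaled effect in LS411N-BR and of 0.0606 with that in LS411N. Ribosomal protein genes have many processed copies elsewhere in the genome, whose reads can be shared with the gene. The 28 such copies listed in both tables summed to 171 to 214 TPM in LS411N-BR with doxycycline and 167 to 173 TPM without it, and to 343 to 371 TPM in LS411N with doxycycline and 361 to 448 TPM without it. The sources used here do not say how reads that match several copies were counted, so single levels are uncertain to that extent.

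Of the members with a promoter entry, 29 of the 40 with a TOP match fell in LS411N-BR after rescaling, with a median of -0.22, and 17 of the 20 without a match did, with a median of -0.17, beside 32.2% of all genes. As deposited 5 of the 40 fell and 4 rose, with a median of -0.01. Of the 20, 1 fell and 1 rose, with a median of 0.04, beside 11.1% of all genes that fell and 56.1% that rose. In LS411N 9 of 40 and 3 of 20 fell after rescaling, with medians of -0.14 and -0.12, beside 16.0% of all genes. As deposited 0 were called there, with medians of -0.06 and -0.05, beside 3.43% of all genes lower and 9.75% higher. The 436 other tested genes with a match had a median of -0.04 in LS411N-BR after rescaling, where 175 of them, 40.1%, were called lower, against 31.9% of all tested genes other than members. As deposited 53 of them, 12.2%, were called lower and 221, 50.7%, higher, with a median of 0.14. Of all tested genes other than members 11.1% were called lower there and 56.4% higher. In LS411N 68 of 438 were called lower after rescaling, 15.5%, against 16%. As deposited 9 of 442 were called lower there, 2.04%, and 27 higher, 6.11%, against 3.45 and 9.82%. After rescaling the members' medians were below 0 with and without a match in both lines. Small nucleolar RNAs lie inside 26 members in GENCODE 29. Of these 22 fell in LS411N-BR after rescaling, with a median of -0.19. Of the other 50, 36 fell, with a median of -0.18, beside 32.2% of all genes. As deposited 2 of the 26 fell and 1 rose, with a median of 0.02. Of the 50, 5 fell and 5 rose, with a median of 0.03, beside 11.1% of all genes that fell and 56.1% that rose. In LS411N 7 of the 26 and 7 of the 50 fell after rescaling, with medians of -0.13 for both, beside 16.0% of all genes. As deposited 0 were called there.

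Among ribosomal proteins outside the symbol rule, RPL22L1 fell further than any of the 76 members after rescaling, in both lines. RPL22L1, a paralogue of RPL22 that can take its place in the ribosome, had 32.8, 30.5 and 29.4 rescaled TPM in LS411N-BR with doxycycline, against 52.4, 49.1 and 55.3 without it. In LS411N RPL22L1 had 84.9, 87 and 93 with doxycycline, against 133, 120.2 and 144 without it. It lay lower in every library with doxycycline and was called on both scales in both lines, a fall by 40.1% in LS411N-BR (-0.74, adjusted p = 1.1e-06; -0.54 as deposited) and by 33% in LS411N (-0.58, adjusted p = 0.00055; -0.5 as deposited, adjusted p = 0.019). RPL22 itself had 145, 145 and 129 rescaled TPM in LS411N-BR with doxycycline, against 153, 154 and 148 without it. It fell there after rescaling (-0.12, adjusted p = 0.046) but stood at 0.09 as deposited, and in LS411N it was at 0.06 and 0.13, not called. RPL36AL, an expressed copy of RPL36A, went up: it had 129, 120.3 and 94.1 rescaled TPM in LS411N-BR with doxycycline, against 93.3, 90.6 and 90.7 without it, and 502, 459 and 463 in LS411N with doxycycline, against 383, 376 and 364 without it. The lowest library with doxycycline came close to the others in LS411N-BR alone. The rise was 0.31 (adjusted p = 0.015) and 0.34 (adjusted p = 0.0021) after rescaling, and 0.51 and 0.42 as deposited, the last at adjusted p = 0.05 as rounded. Of the 8 tested genes in this list 5 fell and 1 rose in LS411N-BR after rescaling, beside 32.2 and 32.3% of all genes. In LS411N 3 fell and 1 rose, beside 16.0 and 18.8%. RPSA, a small subunit protein named as a laminin receptor, and RACK1, a scaffold on the small subunit, fell in both lines after rescaling, while FAU was called in neither; these 3 were added after their values were seen. As deposited 3 of the 8, FAU among them, rose and 1 fell in LS411N-BR, beside 56.1 and 11.1% of all genes. In LS411N 0 rose and 1 fell, beside 9.75 and 3.43%. Differences of the 8 genes between lines were not called on either scale.

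Translation factors and other mRNAs known to carry TOP motifs had medians of -0.19 in LS411N-BR and -0.11 in LS411N after rescaling. Of 22 tested, 17 fell in LS411N-BR after rescaling and 1 rose, beside 32.2% of all genes that fell and 32.3% that rose, and 7 fell and 0 rose in LS411N, beside 16.0 and 18.8%. On the deposited TPM 4 fell and 5 rose in LS411N-BR, beside 11.1 and 56.1% of all genes, and 0 were called in LS411N. NACA, the alpha subunit of the nascent polypeptide complex, had 64.9, 68.6 and 60.0 rescaled TPM in LS411N-BR with doxycycline, against 94, 92.2 and 85.8 without it, and 146, 132 and 144 in LS411N with doxycycline, against 173, 177 and 190.3 without it. NACA was lower in all libraries with doxycycline, by 28.6% in LS411N-BR and 21.9% in LS411N. EEF1A1, the elongation factor that delivers tRNA, fell by 22.4 and 18.8%, and NAP1L1, a histone chaperone, by 22.1 and 17.3%. EIF4A2, a helicase of translation initiation, was the one that rose in LS411N-BR, by 0.23 after rescaling (adjusted p = 0.0029), and in LS411N it stood at -0.01.

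Genes of the mTORC1 and LARP1 axis and of ribosome assembly were called in both directions. Beside the counts that follow, 32.3% of all genes rose and 32.2% fell in LS411N-BR after rescaling, and 56.1% rose and 11.1% fell as deposited. In LS411N 18.8% rose and 16.0% fell after rescaling. Of 16 tested mTORC1 and LARP1 genes 3 rose and 5 fell in LS411N-BR after rescaling, and 1 rose and 3 fell in LS411N. As deposited 10 rose and 1 fell in LS411N-BR and 0 were called in LS411N. DDIT4, an inhibitor of mTORC1, had 66.1, 75.1 and 60.1 rescaled TPM in LS411N-BR with doxycycline, against 91.2, 91 and 91.1 without it. In LS411N DDIT4 had 199, 234 and 221 with doxycycline, against 202, 179 and 154 without it. It fell in LS411N-BR on both scales (-0.44, adjusted p = 0.00021 after rescaling) and was at 0.3 in LS411N (adjusted p = 0.05 as rounded, not called), and the difference between lines was called (-0.73 ± 0.13 SE after rescaling, adjusted p = 0.0037). Of the 16 genes 2 had a lower and 1 a higher difference called after rescaling, and 1 a lower one as deposited. LARP1 was at -0.01 and -0.03, and MTOR at 0.08 and 0 after rescaling in LS411N-BR and LS411N, all not called; they are named after their values were seen, and as deposited both rose in LS411N-BR, by 0.20 and 0.28. Of 14 chaperones and importers of ribosomal proteins 2 rose and 3 fell in LS411N-BR after rescaling, and 1 rose and 2 fell in LS411N, while as deposited 10 rose and 1 fell in LS411N-BR and 0 were called in LS411N. On the log2 scale the importer TNPO1 rose by 0.28 and BCCIP, a chaperone of RPL23, by 0.11 in LS411N-BR after rescaling. IPO5, an importer added after its values were seen, lay lower in every library with doxycycline. Its mean rescaled TPM with and without doxycycline was 126 and 159 in LS411N-BR, and 87.2 and 105 in LS411N. Of 8 genes that handle the 5S particle or link it to p53, 2 rose and 3 fell in LS411N-BR after rescaling, and 1 rose and 2 fell in LS411N, while as deposited 5 rose and 1 fell in LS411N-BR and 0 were called in LS411N. NOP53, a nucleolar partner of the 5S particle, fell by 29.7% in LS411N-BR and 22.2% in LS411N, while RPF2, which brings that particle into the precursor of the large subunit, rose by 22.4 and 12.1%.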

How the data were processed

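The authors deposited TPM per gene, 1 table per line, made from stranded mRNA libraries per the labels. TPM have the same sum in every library, so the depth is unknown and no counting error is given. Per the submitters' processing notes the tools were STAR and DESeq2 and the genome GRCh38, with no roles stated. What computed the TPM, and on which gene models, is not given. The labels speak of cells cultured in triplicate and not of separate days, so p-values measure the spread between these libraries, which may be technical.

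A gene was tested if 3 or more of its comparison's libraries had 1 TPM or more. The test was on log2(TPM + 1), with limma 3.58.1 (R 4.3.3), with a trend of the spread on the level, within each table, and it took in all 76 members in both lines. The difference between lines was the interaction over 12 libraries. Adjusted p-values cover all genes tested. On the deposited TPM of LS411N-BR limma found no spread between genes beyond the trend, so that adjusted p-values there are small. Median-of-ratios rescaling was done per line for tests and over 12 libraries for levels between lines and sums. The scripts were tested on simulated data. Named are the 6 members with the largest change each way per comparison, the 5 with the highest and the 5 with the lowest TPM, members near the threshold, all of 4 role lists (stalk, 5S particle, ubiquitin fusion and S6 kinase substrate, paralogues), and at most 3 of each other list by adjusted p; others are said to be added. The values of 1 member, which stays in all counts, are not reported here. Alternatives were other pseudocounts, filters and scalings, limma's settings, the replicate block and each library left out. The members and all lists were chosen with earlier results of these data known. Sequences are from RefSeq (GRCh38.p14) and positions of exons from GENCODE 29, to which all 76 members were matched by symbol. Python 3.11.15 was used for the rest.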

Additional observations from a re-analysis of the deposited data

How the results depend on the processing

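In LS411N-BR 6 members were called higher and 7 lower as deposited, beside 6351 and 1252 of 11322 genes. Median-of-ratios rescaling gave 1 and 58, beside 3652 and 3641 of 11307. Protein-coding scaling gave 1 and 32, beside 5047 and 2384 of 11053. No filter on TPM gave 2 and 2, beside 6448 and 1393 of 17468. No trend gave 6 and 4, beside 6115 and 1176 of 11322. A spread estimated from all 12 libraries gave 1 and 1, beside 4369 and 722 of 11322. In LS411N, where 0 were called, the lower calls were 14 after rescaling, 8 with protein-coding scaling and 1 with the spread of all 12 libraries. Of all genes 1802 of 11284, 1328 of 11095 and 685 of 11250 were called lower in these settings. In LS411N-BR leaving out each library gave 4 to 11 higher and 3 to 9 lower. Of all genes 5459 to 6727 were higher and 976 to 1331 lower there. In LS411N leaving out gave 0 to 4 higher and 0 to 1 lower, beside 454 to 5930 and 170 to 707 of all genes. Leaving out together with rescaling was a choice made after seeing the data. In LS411N-BR it gave 0 to 1 higher, and 49, 56 and 43 lower without replicates 1, 2 and 3 with doxycycline. The lower calls were 40, 62 and 46 without replicates 1, 2 and 3 without doxycycline. Of all genes 3271 to 3449 were higher and 3260 to 3452 lower. In LS411N it gave 0 higher, and 13, 2 and 2 lower without the replicates with doxycycline. The lower calls were 5, 7 and 29 without the replicates that had no doxycycline. Of all genes 1348 to 2813 were higher and 1140 to 2446 lower. For the difference between lines it gave 0 to 2 lower, beside 387 to 1387 of all genes. The other alternatives left the difference at 0 called.

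With the replicate number as a block 6 members were higher and 4 lower in LS411N-BR, beside 5561 and 989 of 11322 genes. With the block and rescaling these were 1 and 55, beside 3659 and 3636 of 11307. In LS411N the lower calls were 0 and 11, beside 268 of 11281 and 1814 of 11284 genes. Same-numbered libraries with and without doxycycline were correlated in the deviations of each gene from its group mean, not in the levels themselves. These correlations were 0.023, 0.00307 and 0.00837 in LS411N-BR and 0.0294, 0.00622 and 0.173 in LS411N. In these deviations 0 and 2 of 6 libraries correlated best with their own number, so the numbers are not shown to pair libraries.

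In LS411N-BR 43 members lay above 0 as deposited and 2 after rescaling, and in LS411N 16 and 3. Of named members called on either scale, with and without the block, values in LS411N-BR changed sign to -0.11 for RPL10 and RPL4, -0.14 for RPL11, -0.12 for RPL22, -0.16 for RPL26, -0.10 for RPL28, -0.036 for RPL34, -0.028 for RPL35, -0.0196 for RPL39, -0.19 for RPL5, RPL8 and RPS9, -0.13 for RPS14, -0.17 for RPS2 and RPS27A, and -0.18 for RPS28. With protein-coding scaling RPS9 was at -0.0896. The summed rescaled level was 85944.5 TPM in LS411N-BR with doxycycline and 96981.5 TPM without it, and 104815 TPM in LS411N with doxycycline and 115519 TPM without it. The mean coding shares were 19.65 and 20.82% in LS411N-BR with and without doxycycline and 22.87 and 24.35% in LS411N. Without RPL12, RPL37A and RPS25 the share of all TPM was 8.4% in LS411N-BR with doxycycline and 8.23% without it, and 9.11% in LS411N with doxycycline and 9.59% without it. The median rescaled level in LS411N-BR with doxycycline was 827 TPM. The cause of these shifts was not tested. TPM give no depth, so low members such as RPS10 cannot be given a counting error.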
